A study of Mus musculus with 6 samples.

Results

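Brush border and absorptive genes of the small intestine were followed in stomach RNA from mice given Riclin and mice given saline, by taking the rows of the deposited table whose symbol is Anpep, Alpi, Fabp1, Fabp2, Apoa4, Vil1, Cdx1, Cdx2, Sis or Lct. All 10 symbols were found among 23550. The Riclin group received Riclin, a soluble dietary fibre, by gavage at 20 mg per kg for 14 days, and the control group received normal saline by gavage for the same time, with the same 20 mg per kg written in its label. Each group has 3 libraries, which carry the numbers 2, 3 and 4 in the Riclin group and 1, 2 and 4 in the saline group. The labels give neither strain, sex nor age, and do not say which part of the stomach was taken or whether each library is a separate animal. The question was what Riclin does to the barrier that protects the gastric mucosa. Ethanol injury was a separate experiment, and the sources used here do not state whether these mice were given ethanol. Values are FPKM, fragments scaled to the length of the gene and the size of the library, so levels can be compared between genes.

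The brush border is the carpet of actin-filled microvilli on the surface of absorptive enterocytes, the cells that take up nutrients in the small intestine. Its membrane carries enzymes that finish digestion, and the cell below binds, re-esterifies and exports dietary fat as chylomicrons. The transcription factors CDX1 and CDX2 set intestinal identity and are normally low or silent in the stomach, where their appearance is used as a sign of intestinal metaplasia. In the mouse the stomach continues into the duodenum at the pylorus, with the pancreas and liver close by.

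The 10 genes did not share a pattern in these libraries. Apoa4, Anpep and Vil1 were present in every library at 17.2 FPKM or more and varied by 1.72-fold, 2.12-fold and 2.28-fold between the lowest and the highest library. Fabp2 and Fabp1 were also present in every library but varied by 20.97-fold and 52.7-fold. Alpi, Cdx2, Cdx1 and Sis each had their highest value by far in saline replicate 4, and Lct was near 0 throughout. By mean level over the 6 libraries the order was Apoa4 at 75.2 FPKM, Anpep at 49.3, Vil1 at 29.7, Fabp2 at 22.8, Fabp1 at 13.9 and Alpi at 8.03, with Cdx2, Cdx1, Sis and Lct under 1 FPKM. Neighbours in that order down to Alpi overlapped in their ranges over the libraries. Because tissue was sequenced in bulk, fewer cells of a type and less RNA per cell cannot be told apart.

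**Figure D1:**
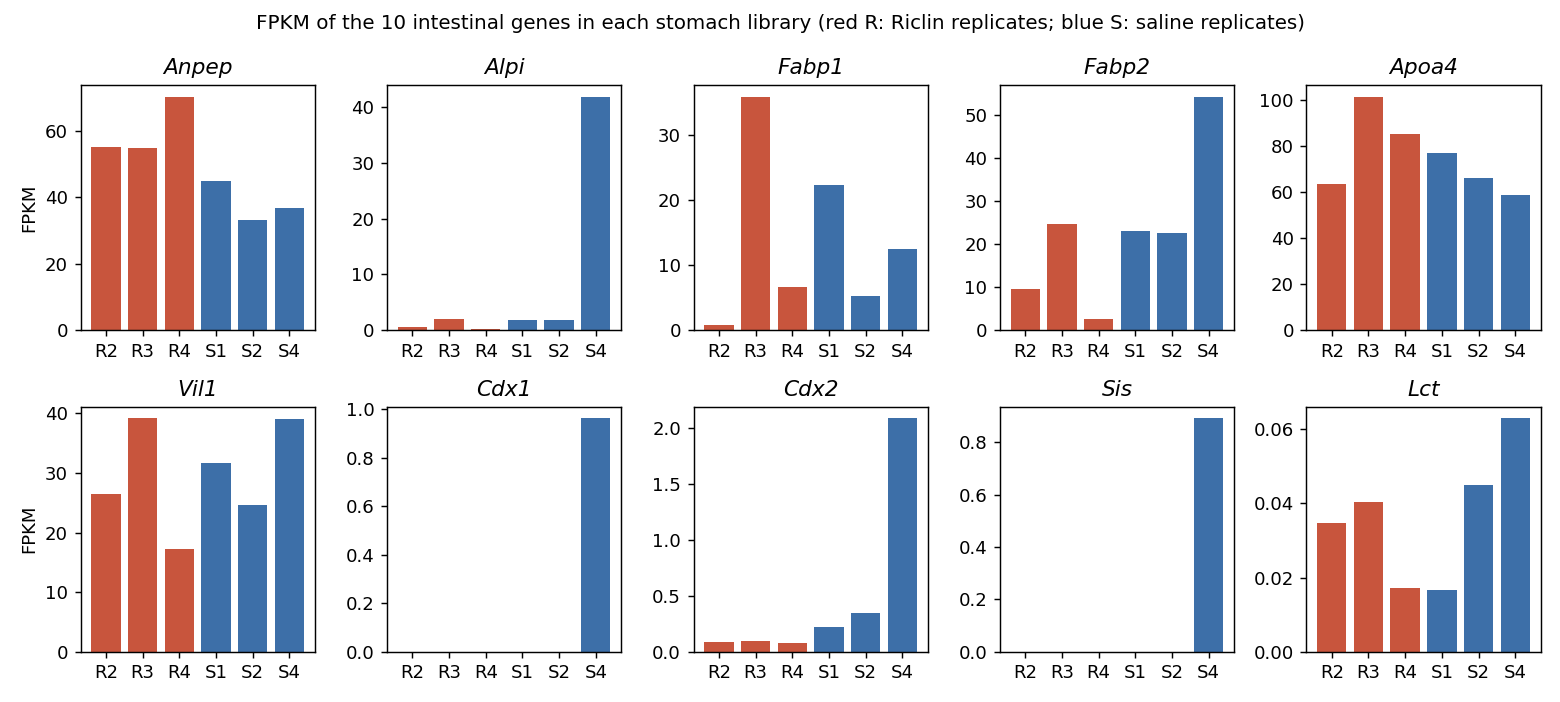
FPKM (vertical axis, linear, a separate scale for each gene) of the 10 genes in the 3 Riclin libraries (red) and the 3 saline libraries (blue), 1 bar per library. Anpep stood between 54.8 and 70.4 FPKM in Riclin, above every saline library, while Alpi, Cdx1, Cdx2 and Sis peaked in saline replicate 4.

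No member passed the adjusted threshold. Testing by limma on log2(FPKM + 1) was limited to genes that reached 1 FPKM in 3 or more libraries. Of the 10 members, 6 passed that filter, and Cdx1, Cdx2, Sis and Lct did not. Over all 11738 genes tested, 0 (0%) passed a Benjamini-Hochberg adjusted p of 0.05 by limma, and 693 (5.9%) had an unadjusted p under 0.05. Members with an unadjusted p under 0.05 were Anpep, higher in Riclin as were 4.07% of all genes tested, and Fabp2, lower in Riclin as were 1.83%. The 6 members tested, 2 higher and 4 lower, had a median log2 fold change of -0.47, beside 0.04 over all genes tested. Without Riclin replicate 2 they were 3 higher and 3 lower with a median of 0.083, without Riclin replicate 4 they were 3 higher and 3 lower with a median of -0.31, and without Riclin replicate 3 the median was -1.17. Without saline replicates 1, 2 and 4 in turn the median was -0.24, -0.80 and -0.36. Over 16 alternative fits the unadjusted p of Anpep stayed under 0.05 in 16 and that of Fabp2 in 10. Limma's voom on reads recovered from the FPKM values also called 0 genes, with 740 at an unadjusted p under 0.05.

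Among the membrane enzymes, Anpep encodes aminopeptidase N, a zinc peptidase that removes residues from the amino end of peptides and is made by enterocytes and also by myeloid cells and fibroblasts. It lies on chromosome 7 from 79821803 to 79861059 of GRCm38, on the minus strand, and overlaps the predicted gene Gm44974 there. Anpep measured 55.3, 54.8 and 70.4 FPKM in Riclin replicates 2, 3 and 4, against 44.9, 33.3 and 36.7 FPKM in saline replicates 1, 2 and 4. All 3 Riclin libraries were above all 3 saline libraries, with the gap between 44.9 and 54.8 FPKM. Groups that do not overlap were found in 11.2% of all genes tested, and in 8.14% with Riclin the higher. The means were 60.2 ± 8.87 FPKM in Riclin and 38.3 ± 5.99 FPKM in saline (SD, n = 3 each), a 1.57-fold difference. The log2 fold change was 0.64 (SE 0.155, 95% interval 0.28 to 1.0001, limma adjusted p = 0.682). Without saline replicate 4 it was 0.61. Summed fibroblast markers ran from 608 to 705 FPKM in Riclin and from 464 to 616 in saline. Summed myeloid markers ran from 142.5 to 200 FPKM in Riclin and from 174.6 to 229 in saline. Summed markers of the corpus glands ran from 14033 to 19199 FPKM in Riclin and from 7922 to 12391 in saline, groups that did not overlap either. Their part in the Anpep difference was not tested.

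Alpi encodes intestinal alkaline phosphatase, which removes phosphate from lipids and from bacterial lipopolysaccharide at the enterocyte surface. The gene lies on chromosome 1 from 87098002 to 87101606, on the minus strand. It measured 0.494, 1.998 and 0.146 FPKM in Riclin replicates 2, 3 and 4, against 1.84, 1.72 and 42.0 FPKM in saline replicates 1, 2 and 4. Behind these values stand 43, 187 and 13 reads in Riclin, against 167, 145 and 3028 reads in saline. Saline replicate 4 was 20.998-fold above the next library, and the other 5 libraries lay between 0.146 and 1.998 FPKM, with the groups overlapping. The log2 fold change of -2.005 (SE 1.001, limma adjusted p = 0.823) became -0.69 without saline replicate 4. Without Riclin replicate 3 and saline replicate 4 together it was -1.09 (limma adjusted p = 0.393). Over 15 alternative fits the unadjusted p of Alpi was under 0.05 in 4. The related intestinal phosphatase gene Akp3 lies near it on chromosome 1 from 87124973 to 87127912. Akp3 was listed at 0 FPKM in all 3 Riclin libraries and in saline replicates 1 and 2, and at 99.5 FPKM in saline replicate 4. These genes are similar in sequence, so reads may be split between them.

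Sis and Lct encode the disaccharidases sucrase-isomaltase and lactase. Sis was listed at 0 FPKM in all 3 Riclin libraries and in saline replicates 1 and 2, and at 0.892 FPKM, or 164 reads, in saline replicate 4. Taking 3 reads per library as the limit that a count of 0 allows, at most 0.0140 FPKM, Sis was at least 63.8-fold higher in saline replicate 4 than in any other library. Lct measured 0.0348, 0.0404 and 0.0170 FPKM in Riclin, against 0.0167, 0.0450 and 0.0629 FPKM in saline. That is 4 to 10 reads per Riclin library and 4 to 12 reads per saline library, too few to show a difference. The exact two-sided permutation p was 1 for Sis and 0.5 for Lct, where 3 against 3 cannot go below 0.1.

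CDX1 and CDX2 are homeobox factors that switch on intestinal genes, among them Sis in the mouse. Cdx1, on chromosome 18 from 61018862 to 61036199, was listed at 0 FPKM in all 3 Riclin libraries and in saline replicates 1 and 2. Saline replicate 4 had 0.962 FPKM of Cdx1, or 52 reads, at least 20.2-fold above the limit that 3 reads set in the other libraries. Cdx2, on chromosome 5 from 147300805 to 147307270, measured 0.0876, 0.0931 and 0.0736 FPKM in Riclin, against 0.216, 0.349 and 2.08 FPKM in saline. These are 7, 8 and 6 reads in Riclin, against 18, 27 and 138 reads in saline. All Riclin libraries lay below all saline libraries, at the lowest p the exact two-sided permutation test allows here, 0.1. Over all genes tested by limma, 3.02% did not overlap with Riclin the lower, though Cdx2 did not pass the filter for that test. The log2 fold change on the log2(FPKM + 1) scale was -0.66 for Cdx2, and -0.24 without saline replicate 4.

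Saline replicate 4 held transcripts of many intestinal genes that the other 5 libraries listed at 0 or at low levels. To count them, a gene was taken as high in a library where it reached 0.5 FPKM and stood at least 4-fold above every other library. This rule was chosen after the values were seen and describes the libraries without a test. Saline replicate 4 was high in this sense for 67 of 14154 genes, or 0.473%, against 7 genes in Riclin replicate 2 (0.0495%), 15 in Riclin replicate 3 (0.106%), 18 in Riclin replicate 4 (0.127%), 12 in saline replicate 1 (0.0848%) and 6 in saline replicate 2 (0.0424%). Of the 9 members that reached 0.5 FPKM in a library, Alpi, Cdx1, Cdx2 and Sis met the rule there, and 0 members met it in any other library. Of 78 genes in 5 further lists of intestinal absorption (hydrolases, microvillus structure, transporters, lipid export and transcription factors), 15 met it in saline replicate 4 and 0 in any other library.

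From the hydrolase list, Mgam (maltase-glucoamylase) at 2.19 FPKM, Treh (trehalase) at 1.58, the meprin subunit gene Mep1b at 1.95 and Akp3 met the rule in saline replicate 4. Clec2h, placed in that list though it does not encode a hydrolase, met it too at 3.28 FPKM. The microvillus genes were Myo7b and Ush1c, which encode parts of the complex at microvillus tips, and Tm4sf20 at 6.80 FPKM. The transporter genes were Slc7a9 (cystine and dibasic amino acids) at 1.46, Slc26a3 (chloride and bicarbonate exchange) at 5.30, Slc13a1 (sulfate) at 2.52, Slc51a (bile acids) at 1.05 and Abcg8 (sterols) at 1.28. Mttp, which loads lipid onto apolipoprotein B, stood at 4.82 FPKM against 0.308 to 0.613 elsewhere. Vdr, the vitamin D receptor, stood at 4.50 FPKM against 0.254 to 0.740 elsewhere. In the goblet and Paneth cell list 12 genes reached 0.5 FPKM in a library. Of these Muc2, Tff3, Defa24 and Mmp7 met the rule in saline replicate 4, and the rest did not. Defa24, a defensin of Paneth cells, was listed at 0 FPKM in the other 5 libraries and at 22.4 in saline replicate 4, and Tff3, a goblet cell peptide, stood at 29.8 against 0.469 to 3.20. Of the 4 duodenal hormone genes that reached 0.5 FPKM in a library, 0 met it. Gip measured 2.05 FPKM in saline replicate 1 and 1.89 in saline replicate 4, and was listed at 0 in the other libraries. The labels call all 6 samples stomach, and Atp4a, the catalytic subunit of the gastric proton pump, ran from 1644 to 2245 FPKM in Riclin and from 1273 to 1740 in saline.

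**Figure D2:**
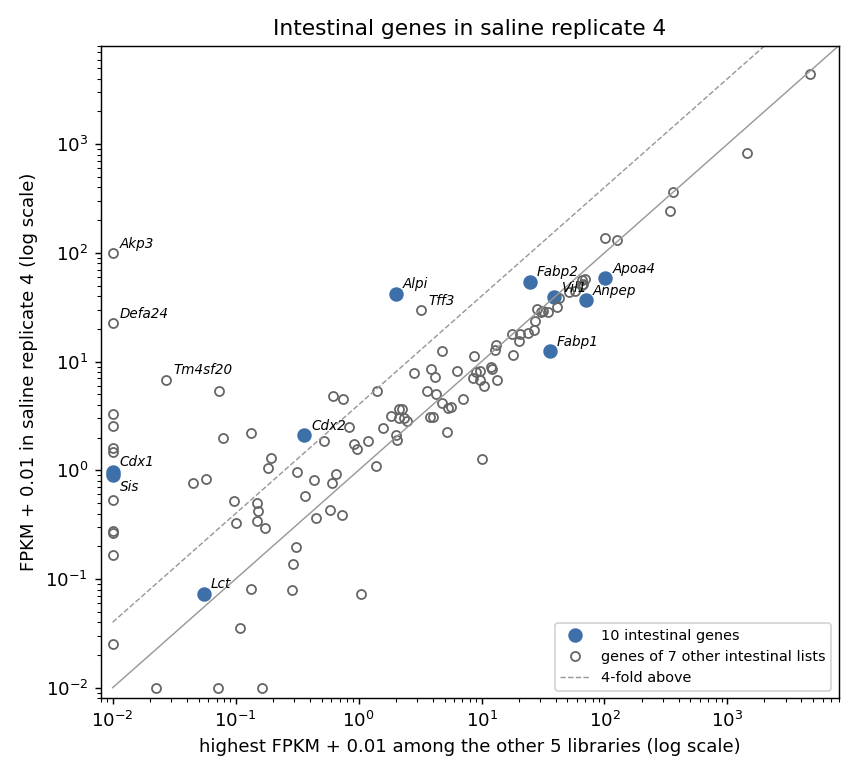
FPKM + 0.01 in saline replicate 4 (vertical axis) against the highest FPKM + 0.01 of the other 5 libraries (horizontal axis), both on log scales, for the 10 genes (filled) and the genes of 7 other intestinal lists (open). The solid line marks equal values and the dashed line a 4-fold excess. Alpi, Cdx1, Cdx2 and Sis lie above the dashed line, while Anpep, Apoa4 and Fabp1 lie below the solid line.

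Upstream sequences of Alpi, Sis, Fabp2, Fabp1 and Anpep are shown as a description. Their relation to the levels in any library was not tested. The stretches shown are the 250 bases before the RefSeq start on GRCm38.p6, read on each gene's own strand, at chr1:87101607-87101856 (minus) for Alpi, chr3:72967864-72968113 (minus) for Sis, chr3:122894822-122895071 (plus) for Fabp2, chr6:71199629-71199878 (plus) for Fabp1 and chr7:79848211-79848460 (minus) for Anpep. Capitals mark matches on either strand to TTTATNG, a core of the CDX binding motif, or to CAAAGTNCA, a motif of the nuclear receptor HNF4. Both motifs were chosen with the sequences in view.
Alpi: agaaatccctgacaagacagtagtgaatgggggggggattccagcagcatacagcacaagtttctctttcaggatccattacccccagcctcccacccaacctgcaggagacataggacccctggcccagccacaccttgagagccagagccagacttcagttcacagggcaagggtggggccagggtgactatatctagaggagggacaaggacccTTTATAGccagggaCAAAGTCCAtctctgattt
Sis: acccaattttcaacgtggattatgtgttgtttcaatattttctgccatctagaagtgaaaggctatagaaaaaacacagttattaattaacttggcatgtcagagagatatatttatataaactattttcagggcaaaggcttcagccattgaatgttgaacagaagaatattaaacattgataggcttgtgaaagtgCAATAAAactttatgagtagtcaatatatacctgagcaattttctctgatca
Fabp2: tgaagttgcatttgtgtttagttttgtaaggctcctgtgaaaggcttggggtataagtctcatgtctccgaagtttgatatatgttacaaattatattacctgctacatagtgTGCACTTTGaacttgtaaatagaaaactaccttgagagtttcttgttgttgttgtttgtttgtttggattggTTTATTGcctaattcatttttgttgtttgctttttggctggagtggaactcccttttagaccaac
Fabp1: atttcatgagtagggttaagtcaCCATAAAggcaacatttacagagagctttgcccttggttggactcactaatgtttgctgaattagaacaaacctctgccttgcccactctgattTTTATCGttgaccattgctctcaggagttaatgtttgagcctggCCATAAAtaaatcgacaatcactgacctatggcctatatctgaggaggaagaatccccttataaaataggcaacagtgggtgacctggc
Anpep: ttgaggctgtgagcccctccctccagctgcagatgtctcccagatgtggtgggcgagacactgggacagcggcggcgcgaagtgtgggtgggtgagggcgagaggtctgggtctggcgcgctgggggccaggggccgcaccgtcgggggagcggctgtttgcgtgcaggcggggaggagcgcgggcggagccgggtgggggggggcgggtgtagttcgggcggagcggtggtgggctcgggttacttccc

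TTTATNG was found in 4 of the 9 upstream windows compared, those of Alpi, Sis, Fabp1 and Fabp2, and in 9.81% of all 32851 windows of that length. In Alpi the match begins 33 bases before the start and in Sis 52 bases before it. CAAAGTNCA was found in Alpi, Fabp2 and Apoa4, and in 1.19% of all windows. These motifs do not overlap each other in the sequences shown. The Anpep window has neither and is rich in G and C, at 72.8%, against 31.6% for Sis and a median of 52.4% over all windows. That window lies inside the GENCODE span of Anpep, which holds 6 transcripts, and not before its outer end at 79861059. Other starts of Anpep were not examined. The Fabp1 window ends at 71199878, past the GENCODE start of the gene at 71199827. The windows of Apoa4, Vil1 and Cdx2 also run in part into the GENCODE span of their gene. A match is a run of letters and not evidence of binding.

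Of the lipid carriers, Fabp2 encodes the intestinal fatty acid binding protein, which ferries long-chain fatty acids in enterocytes. It lies on chromosome 3 from 122895072 to 122899506, on the plus strand. Fabp2 measured 9.49, 24.6 and 2.59 FPKM in Riclin replicates 2, 3 and 4, against 23.0, 22.6 and 54.3 FPKM in saline replicates 1, 2 and 4. The groups overlapped, since Riclin replicate 3 stood above saline replicates 1 and 2. The means were 12.2 ± 11.3 FPKM in Riclin and 33.3 ± 18.2 FPKM in saline (SD, n = 3 each). The log2 fold change was -1.67 (SE 0.666, 95% interval -3.22 to -0.13, limma adjusted p = 0.806). Leaving out saline replicate 4 gave -1.27, and leaving out Riclin replicate 4 gave -0.94. Its unadjusted p was no longer under 0.05 without Riclin replicate 2, Riclin replicate 4, saline replicate 2 or saline replicate 4, with no filter, or with a robust prior. Markers of the antrum, the part of the stomach next to the duodenum, stand beside these values. The antral hormone gene Gast measured 420, 389 and 2.62 FPKM in Riclin, against 1037, 676 and 943 FPKM in saline. Pdx1, a transcription factor gene of the antrum, duodenum and pancreas, measured 3.85, 4.29 and 1.93 FPKM in Riclin, against 6.51, 7.16 and 8.48 FPKM in saline. Riclin replicate 4 was the lowest library in Fabp2, Gast and Pdx1. The sum over all 5 antral markers, which include Pgc and Muc6, abundant in other gastric glands too, ran the other way, from 59075 to 80177 FPKM in Riclin and from 33338 to 63238 FPKM in saline, with 0 of the 5 at 0. The part of antral tissue in the Fabp2 values was not tested.

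Fabp1 encodes the fatty acid binding protein shared by liver and small intestine. It lies on chromosome 6 from 71199827 to 71205023, on the plus strand. Fabp1 measured 0.682, 35.9 and 6.63 FPKM in Riclin, against 22.4, 5.26 and 12.5 FPKM in saline. The spread within Riclin covered the whole saline range, and the log2 fold change of -0.68 (SE 1.01, limma adjusted p = 0.932) turned to 0.42 without Riclin replicate 2 and was -1.81 without Riclin replicate 3. Albumin transcripts (Alb), made by liver, measured 3.45, 101 and 53.4 FPKM in Riclin, against 142.5, 20.999 and 2.58 FPKM in saline. The sum over the 8 liver markers ran from 103 to 324 FPKM in Riclin and from 99.6 to 373 FPKM in saline, with 0 of the 8 at 0 FPKM in any library. Riclin replicate 3 and saline replicate 1 were the highest libraries in both Fabp1 and the liver sum. Saline replicate 4 had the lowest liver sum, with 12.5 FPKM of Fabp1. The part of liver transcripts in the Fabp1 values was not tested.

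**Figure D3:**
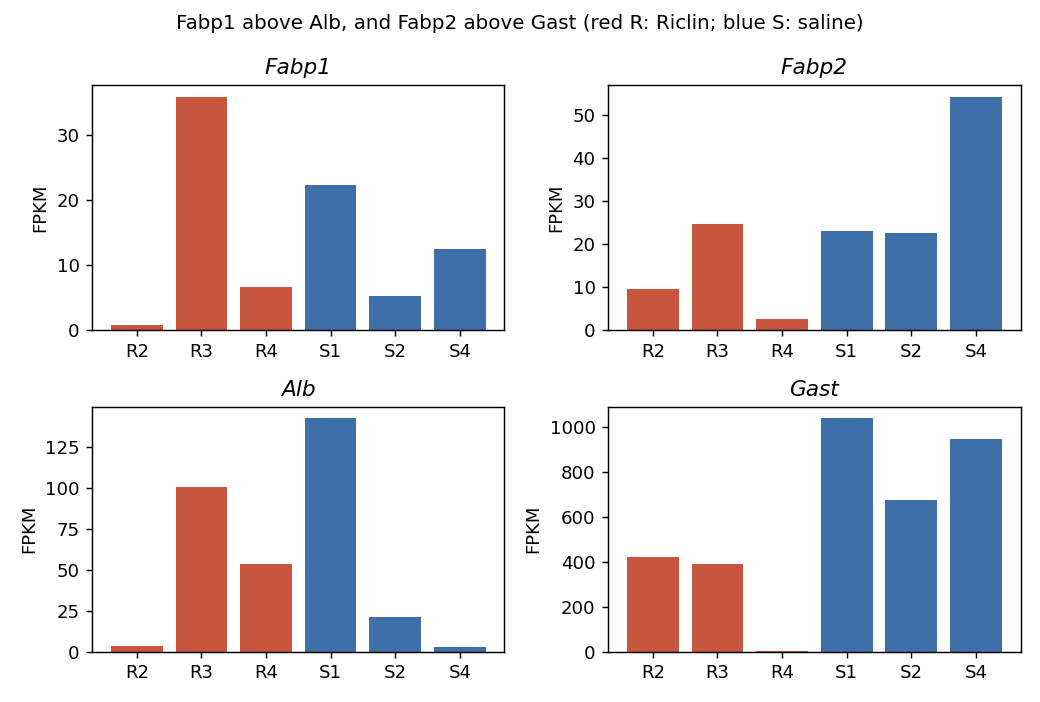
FPKM (vertical axes, linear, separate scales) of Fabp1 above the liver gene Alb, and of Fabp2 above the antral gene Gast, in the 3 Riclin libraries (red) and the 3 saline libraries (blue). Fabp1 and Alb were both high in Riclin replicate 3 and saline replicate 1, and Fabp2 and Gast were both lowest in Riclin replicate 4.

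Apoa4 encodes apolipoprotein A-IV, a lipid-binding protein that enterocytes secrete with chylomicrons. It lies on chromosome 9 from 46240696 to 46243459, on the plus strand. Apoa4 measured 63.5, 101 and 84.9 FPKM in Riclin, against 76.8, 66.0 and 58.8 FPKM in saline. The groups overlapped, and the lowest value was that of saline replicate 4. The log2 fold change was 0.29 (SE 0.190, 95% interval -0.15 to 0.73, limma adjusted p = 0.854). It was 0.14 without Riclin replicate 3, 0.47 without Riclin replicate 2, and 0.044 without Riclin replicate 3 and saline replicate 4 together. Apoa1, a gene of the same family that encodes the main protein of high-density lipoprotein, was at 980 to 1447 FPKM in Riclin and 821 to 1078 FPKM in saline. Like Apoa4 it was highest in Riclin replicate 3 and lowest in saline replicate 4. The sum of pancreatic acinar markers was 298 FPKM in Riclin replicate 3, 158082 in saline replicate 4 and 172356 in saline replicate 2. With acinar genes removed and the libraries rescaled, the log2 fold change of Apoa4 was 0.16. The median over all genes was then -0.066. The part of acinar RNA in the Apoa4 and Apoa1 values was not tested.

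Vil1 encodes villin, the actin-bundling protein of the microvillus core. It lies on chromosome 1 from 74409376 to 74435559, on the plus strand, and overlaps the gene Usp37 on the other strand. Vil1 measured 26.6, 39.2 and 17.2 FPKM in Riclin, against 31.7, 24.5 and 39.1 FPKM in saline. The groups overlapped fully, with the lowest library and the highest both in Riclin. The log2 fold change was -0.25 (SE 0.289, limma adjusted p = 0.921), and became 0.05 without Riclin replicate 4. Leaving out Riclin replicate 3 gave -0.53, and leaving out saline replicate 4 gave -0.09. Fabp2 and Apoa4 also overlap annotated antisense genes. The sources used here do not state whether counting used strand, so reads of such pairs cannot be told apart.

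**Figure D4:**
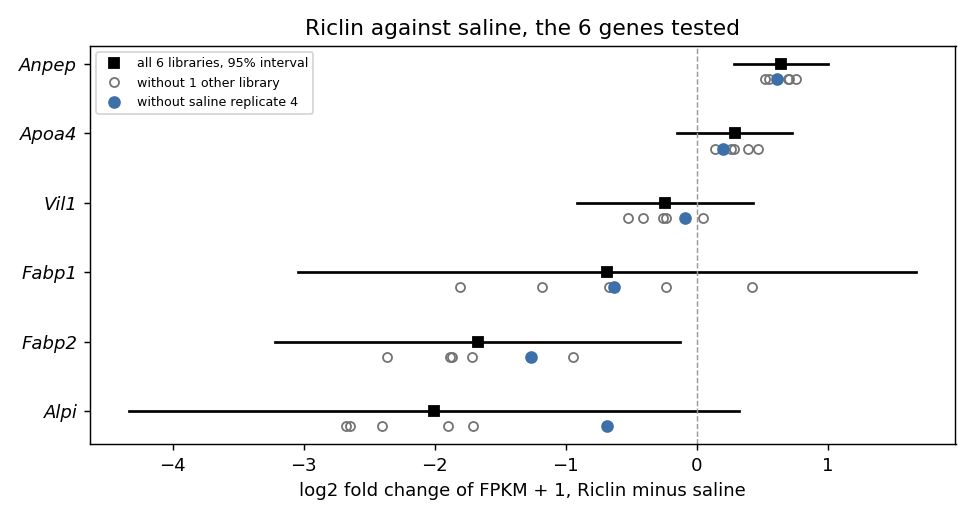
Log2 fold change of FPKM + 1, Riclin minus saline (horizontal axis), for the 6 genes tested. Squares and lines are the limma estimate and its 95% interval over all 6 libraries, open circles leave out 1 library, and the filled blue circle leaves out saline replicate 4. Anpep stays above 0 in each case, and Alpi moves from -2.005 to -0.69 without saline replicate 4.

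The other genes of absorption gave no call either. Over the 5 lists 0 genes passed the adjusted threshold, beside 0 of all 11738. Of 13 microvillus genes tested, 5 were higher and 8 lower in Riclin, with a median log2 fold change of -0.22, beside 0.04 over all genes tested. That median was 0.00096 without saline replicate 4, -0.082 without Riclin replicate 4 and -0.096 without saline replicate 1. Myo1a, a membrane-tethering myosin of microvilli, measured 21.5, 22.5 and 18.1 FPKM in Riclin, against 30.3, 27.9 and 28.3 FPKM in saline, with no overlap (log2 fold change -0.46, SE 0.114, limma adjusted p = 0.682). Cobl, an actin nucleator, ran the other way without overlap, at 8.60 ± 1.54 FPKM in Riclin and 5.96 ± 0.342 FPKM in saline (SD, n = 3 each). Its limma adjusted p was 0.699. Of the 13 genes 1 did not overlap in each direction, as 8.14% of all genes tested did not with Riclin the higher and 3.02% with Riclin the lower. Cobl and Myo1a also had an unadjusted p under 0.05, where 4.07% of all genes tested were higher and 1.83% lower at that threshold. Ezr, the ezrin gene that links actin to the membrane, was at 310 ± 29.6 FPKM in Riclin and 263 ± 26.6 FPKM in saline (SD, n = 3 each). The scaffold gene Slc9a3r1 was at 56.5 to 67.3 FPKM in Riclin and 51.4 to 63.1 in saline, Anks4b at 2.69 to 6.61 in Riclin and 5.02 to 9.75 in saline, and Eps8l3 at 13.2 to 18.1 in Riclin and 17.8 to 20.7 in saline, all overlapping.

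Of 14 lipid absorption genes tested, 6 were higher and 8 lower in Riclin, at a median log2 fold change of -0.01. That median was -0.18 without saline replicate 2, -0.15 without Riclin replicate 3 and -0.12 without saline replicate 4. An unadjusted p under 0.05 was found for 4 of them, all lower, where 1.83% of all genes tested were lower at that threshold. The count was 1 without Riclin replicate 4, 2 without saline replicate 1 or saline replicate 4, and 3 without Riclin replicate 2. It stayed at 4 without saline replicate 2, and was 5 without Riclin replicate 3 or with acinar genes removed. Over all genes, 551 to 835 had such a p in either direction with 1 library left out, and 893 with acinar genes removed. Creb3l3, a transcription factor gene of lipid metabolism, measured 0.446, 1.23 and 0.598 FPKM in Riclin, against 2.11, 1.53 and 3.04 FPKM in saline (log2 fold change -0.88, SE 0.218, limma adjusted p = 0.691). Mogat2, which re-esterifies absorbed monoacylglycerol, measured 2.66, 2.68 and 1.47 FPKM in Riclin, against 3.18, 4.18 and 7.27 FPKM in saline. The vitamin A carrier gene Rbp2 averaged 66.0 ± 15.8 FPKM in Riclin and 112 ± 29.0 FPKM in saline (SD, n = 3 each). These 3 genes did not overlap between the groups, as 3.02% of all genes tested did not with Riclin the lower, and each had its highest value in saline replicate 4. The fourth was Dgat1, an enzyme of triglyceride synthesis, at 11.7, 14.7 and 9.52 FPKM in Riclin, against 17.6, 13.2 and 18.1 FPKM in saline. Among the higher genes Acsl5, which activates fatty acids, was at 52.7 to 65.8 FPKM in Riclin and 49.7 to 57.8 in saline, and the fatty acid receptor gene Cd36 at 33.0 to 40.8 in Riclin and 31.6 to 38.5 in saline.

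Of 10 transporter genes tested, 4 were higher and 6 lower in Riclin, and 7 higher and 3 lower without saline replicate 4. An unadjusted p under 0.05 was found for 1 of them, Cybrd1, lower in Riclin as were 1.83% of all genes tested. Without saline replicate 4 it was found instead for Slc11a2, higher in Riclin. Cybrd1, a duodenal ferric reductase, measured 21.6, 25.5 and 10.7 FPKM in Riclin, against 51.4, 21.1 and 43.7 FPKM in saline (limma adjusted p = 0.817). Slc40a1, the iron exporter ferroportin, measured 3.68, 4.57 and 3.09 FPKM in Riclin, against 4.72, 3.86 and 12.5 FPKM in saline. The fructose transporter gene Slc2a5 was at 1.07 to 1.39 FPKM in Riclin and 0.780 to 1.15 in saline, and the amino acid transporter gene Slc6a20a at 7.23 to 11.9 in Riclin and 6.51 to 10.8 in saline. The sodium and proton exchanger gene Slc9a3 was at 3.70 to 13.4 FPKM in Riclin and 4.03 to 6.72 in saline, and the cholesterol uptake gene Npc1l1 at 0.829 to 2.95 in Riclin and 1.80 to 3.77 in saline. Of 6 genes tested from the hydrolase list, Cps1 among them though not a hydrolase, 2 were higher and 4 lower. An unadjusted p under 0.05 was found for 0 of them. Without saline replicate 2 it was found for 2, Dpp4 and Cps1, both lower, beside 757 of all 11738 genes tested. With the replicate number as a block it was found for Ggt1 and Cps1, both lower, beside 648 of all genes. With acinar genes removed it was found for Dpp4, also lower, beside 893 of 11711 genes. Dpp4, a dipeptidyl peptidase, averaged 1.32 ± 0.324 FPKM in Riclin and 2.16 ± 0.860 FPKM in saline (SD, n = 3 each). Ggt1, which splits glutathione, measured 9.73, 0.393 and 10.0 FPKM in Riclin, against 3.94, 13.1 and 14.2 FPKM in saline. Its low value in Riclin replicate 3 stood beside a sum of pancreatic acinar markers of 298 FPKM there and of 42070 to 172356 FPKM in the other libraries, and their part in it was not tested. The peptidase gene Ace averaged 8.06 ± 0.957 FPKM in Riclin and 7.41 ± 0.919 FPKM in saline (SD, n = 3 each). Cps1, a urea cycle enzyme gene of liver and intestine, was at 0.0666 to 1.51 FPKM in Riclin and 0.231 to 3.64 in saline.

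Of 10 transcription factor genes tested, 5 were higher and 5 lower. An unadjusted p under 0.05 was found for 1 of them, Gata6, higher in Riclin as were 4.07% of all genes tested. Gata6 and Gata4, zinc finger factors of stomach and proximal intestine, averaged 26.1 ± 0.563 and 61.8 ± 4.05 FPKM in Riclin, and 20.8 ± 2.76 and 52.6 ± 4.69 FPKM in saline (SD, n = 3 each). Of these Gata6 did not overlap between the groups (limma adjusted p = 0.791), as 8.14% of all genes tested did not with Riclin the higher. Hnf4g was at 0.770 to 1.20 FPKM in Riclin and 0.888 to 2.45 in saline, Klf5 at 23.0 to 27.7 in Riclin and 24.4 to 30.6 in saline, and the bile acid receptor gene Nr1h4 at 3.55 to 4.25 in Riclin and 3.76 to 5.31 in saline. Hnf4a was at 25.4 to 29.6 FPKM in Riclin and 23.7 to 31.5 FPKM in saline.

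For each member with a mean of at least 1 FPKM, the 3 genes most like it were found by the root mean square difference of their log2(FPKM + 1) profiles over the 6 libraries, each centred on its own mean. Anpep was most like Cish, Cdc42ep1 and Irx5, at differences of 0.10 to 0.12, where its own profile varied by 0.36 about its mean. Alpi was nearest to Tff3, Cldn2 and Gkn3, though at differences of 0.70 to 0.93 none was close. For Fabp1 they were Serpina1b, Apoc3 and Cyp3a11 at 0.66 to 0.74, and for Fabp2 Gstm3, Nkx6-3 and Tff2 at 0.35 to 0.52. Apoa4 was most like Ckb, Gga2 and Ddit3 at 0.05 to 0.07, and Vil1 most like Gstm1, Pck1 and Rasgef1b at 0.12 to 0.14. These likenesses rest on 6 libraries and are a description.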

How the data were processed

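RNA from stomach was sequenced in 6 libraries, and the authors deposited 1 table of FPKM values for 23550 symbols, with no sample left out here. Per the submitters' processing notes the build was mm10 and Bowtie2 was used. Counter, annotation and strandedness were not given in the sources used here. Groups come from the treatment labels and replicate numbers from the titles. Positions are from GENCODE M21 on GRCm38, and upstream sequences from RefSeq on GRCm38.p6.

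The reads behind the FPKM values were recovered as whole numbers within a relative tolerance of 1e-09 for 23547 genes, with library totals of 30884067 to 40050267 reads. For Cdx1 and Lct the smallest whole numbers were raised to match an annotated transcript length. Limits from 3 reads cover counting error only.

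Genes that reached 1 FPKM in 3 or more libraries were tested by limma 3.58.1 in R 4.3.3 on log2(FPKM + 1) with an intensity trend, no covariate and Benjamini-Hochberg adjustment at 0.05, a scale that understates changes of low genes. Members under the filter were tested by an exact two-sided permutation test. The labels do not name separate animals, so the p-values reflect spread among libraries, which may be technical. The steps were tested on simulated data. Lists were described by counts and medians. All members are named, with up to 3 higher and 3 lower genes of the smallest p from each list, and the nearest profiles, though some genes that this rule names are not reported here. Other genes of saline replicate 4, and Dgat1, Hnf4a and Gip, were named after their values were seen. Members and lists were chosen with earlier results of these data known. Labels name no batch. Figures used matplotlib 3.10.9 under Python 3.11.15.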

Additional observations from a re-analysis of the deposited data

How the results depend on the processing

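Each result was recomputed with 0.1 as pseudocount, without a filter, with 5 FPKM as the filter, with upper-quartile or median-of-ratios scaling, acinar genes removed, a robust prior, the replicate number as a block, voom on recovered reads, each library left out, and Riclin replicate 3 and saline replicate 4 left out together. For Cdx1, Cdx2, Sis and Lct only the pseudocount, the unfiltered fit and the fits on fewer libraries were run. No member passed the adjusted threshold in any of these. Limma's adjusted p ran from 0.470 to 0.964 for Anpep, whose log2 fold change ran from 0.52 to 0.82, and from 0.434 to 0.964 for Fabp2, whose log2 fold change ran from -2.56 to -0.94. For Apoa4 it ran from 0.044 to 0.47. The direction turned for Fabp1, whose log2 fold changes with 1 library left out ran from -1.81 to 0.42 (without Riclin replicate 2), and for Vil1, where they ran from -0.53 to 0.045 (without Riclin replicate 4). Genes past the adjusted threshold numbered 3 with acinar genes removed, 2 with the robust prior and 0 to 1 with 1 library left out. Genes at an unadjusted p under 0.05 numbered 1224 of 23550 tested with no filter and 376 of 6909 at 5 FPKM, and 551 to 835 with 1 library left out.

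Replicate numbers 2 and 4 occur in both groups. Deviations of same-numbered libraries from their group means correlated at 0.22 and 0.011 across genes. With 3 libraries per group, these values cannot show whether same-numbered samples share more than a number. Numbers 1 and 3 each occur in only 1 group. Saline replicate 1 and Riclin replicate 3 therefore add nothing to the fold changes of the replicate block, which rest on replicates 2 and 4. In that fit 0 genes passed the adjusted threshold and 648 had an unadjusted p under 0.05. Among members, 4 rather than 2 had an unadjusted p under 0.05. Their log2 fold changes under the block were 0.82 for Anpep, -2.56 for Fabp2, -3.05 for Alpi and -1.36 for Fabp1. The unadjusted limma p of Fabp1 was 0.520 without the block and 0.0023 with it. With 6 libraries, fitting the replicate numbers leaves little from which to estimate spread, so the larger count is no added evidence. Removing acinar genes put the median log2 fold change of all genes at -0.066, beside 0.04 with them.

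Depth limits Cdx1, Cdx2, Sis and Lct, which rest on 0 to 164 reads per library.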
